A study of Mus musculus with 12 samples.

Results

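Mouse genes for heat shock proteins and chaperones are described here, 10 in all, by the peaks of R-loop mapping at their loci in HEPA1-6 cells and in liver. They were taken by name, with earlier results of these data known. Hspa8, Hsp90ab1, Hspa5, Hspd1 and Hspe1, called constitutive here, are made in unstressed cells. Hspa1a, Hspa1b, Hsp90aa1, Hsph1 and Dnajb1, called inducible, are known for induction by heat or other proteotoxic stress. The names do not exclude induction of a constitutive gene by stress. The members are 10 of 21887 protein-coding genes in the RefSeq gene table of GRCm38. A peak was counted for a gene when the 2 overlapped after the gene body had been widened by 1 kb at each end.

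An R-loop forms, mostly during transcription, when RNA pairs with its template DNA strand and the opposite DNA strand is left single. S9.6 is an antibody that binds RNA-DNA hybrids, and RNase H1, which degrades the RNA of a hybrid, is the usual control. The series holds 12 libraries in 6 groups of 2: S9.6 immunoprecipitate, immunoprecipitate with RNase H1, and input DNA, each from HEPA1-6, a mouse hepatoma line grown in culture, and from liver. All are labelled wild type, untreated and hepatocyte, and the mice are C57/Bl6 with no age given in the labels.

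Each source has 1 deposited list of peaks, called on a merged immunoprecipitate against input, and the libraries that were merged are not named. The RNase H1 libraries were not analysed here, so no peak was checked for loss of signal after RNase H1. The HEPA1-6 list held 28717 peaks and the second, the liver list, held 14908. As each source has a single list, no replicate error can be given, no test was made, and the sequencing depth is unknown. The authors' score is a whole number of 10 or more on an unstated scale, so it is given only beside its place within its own list. The liver label was set against markers. Of 21 hepatocyte genes, 6 held a peak in liver and 7 in HEPA1-6, with Alb and Hnf4a in both and Cyp2e1, Cps1 and Ttr in neither. Of 8 cell cycle genes 6 and 7 did, and of 8 endothelial and Kupffer cell genes 1, Cd68, did in each. Among all protein-coding genes the shares were 29.7% in liver and 42.0% in HEPA1-6. The hepatocyte count in liver was thus near the background, and the cell cycle counts stood above it in both lists. These markers do not tell the sources apart. A peak marks S9.6 signal over input and not RNA abundance, so the counts do not measure cell composition.

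Chaperones bind unfolded proteins and help them fold. HSP70 proteins bind short exposed stretches of a client and are driven by ATP, J-domain proteins of the HSP40 family deliver clients and stimulate that ATPase, and HSP110 proteins release the nucleotide. HSP90 acts on partly folded clients such as kinases and steroid receptors, and the HSP60 and HSP10 chaperonin encloses proteins in the mitochondrion. On stress, heat shock factor HSF1 binds heat shock elements, which are inverted repeats of GAA spaced by a pair of bases, and raises transcription of the inducible genes. The protein of Hspa5 works in the endoplasmic reticulum (ER), and its gene answers to unfolded proteins there through the ER stress element.

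The promoters are shown first, because heat shock elements lie in them and because the peaks cover some of them and leave out others. RefSeq promoter windows (GRCm38.p6, 250 bases before to 50 after the start) were matched for 7 of the 10 genes, the others being Hspa8, Hsp90ab1 and Hsp90aa1. The 250 bases before the start are printed 5′ to 3′ on the strand of the gene. Capitals mark a heat shock element of 2 units (GAANNTTC or TTCNNGAA) in the first 3 sequences and the ER stress element (CCAAT and CCACG with 9 bases between them) in the last. Hspa1a lies at chr17:34972157-34972406 (minus strand), Hspa1b at chr17:34959239-34959488 (minus strand), Dnajb1 at chr8:83607925-83608174 (plus strand) and Hspa5 at chr2:34771840-34772089 (plus strand).
Hspa1a: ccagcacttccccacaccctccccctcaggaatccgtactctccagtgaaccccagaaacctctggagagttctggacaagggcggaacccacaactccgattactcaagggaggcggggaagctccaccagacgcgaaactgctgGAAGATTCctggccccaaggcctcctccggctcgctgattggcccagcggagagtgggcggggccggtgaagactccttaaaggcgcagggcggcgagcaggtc
Hspa1b: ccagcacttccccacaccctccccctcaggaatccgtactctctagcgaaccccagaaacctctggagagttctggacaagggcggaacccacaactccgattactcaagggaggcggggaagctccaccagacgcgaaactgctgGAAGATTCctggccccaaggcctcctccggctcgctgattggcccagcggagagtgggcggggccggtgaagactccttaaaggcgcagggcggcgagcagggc
Dnajb1: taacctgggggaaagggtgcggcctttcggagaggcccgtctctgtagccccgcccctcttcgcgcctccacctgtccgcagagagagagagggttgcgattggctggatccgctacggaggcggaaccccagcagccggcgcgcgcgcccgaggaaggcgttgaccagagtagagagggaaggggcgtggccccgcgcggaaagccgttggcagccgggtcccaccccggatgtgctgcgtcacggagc
Hspa5: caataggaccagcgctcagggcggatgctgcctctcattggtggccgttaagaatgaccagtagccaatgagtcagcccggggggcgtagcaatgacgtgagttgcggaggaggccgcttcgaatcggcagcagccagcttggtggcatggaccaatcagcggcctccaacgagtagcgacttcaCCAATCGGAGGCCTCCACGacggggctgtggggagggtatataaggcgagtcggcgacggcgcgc
Hspa1a and Hspa1b carried the same 2-unit element, 104 to 97 bases before the start, and Dnajb1 had no match to these letters. The ER stress element of Hspa5 lay 65 to 47 bases before its start. Elements of 3 units, in which another GAA or TTC follows in alternation after a further NN, were found at the divergent Hspd1 and Hspe1 genes and at Hsph1, and 30 bases around each are printed on the strand of the named gene, with the element in capitals. The Hspe1 site is chr1:55088053-55088082 (plus strand) and the Hsph1 site chr5:149636287-149636316 (minus strand).
Hspe1: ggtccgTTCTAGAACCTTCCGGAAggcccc
Hsph1: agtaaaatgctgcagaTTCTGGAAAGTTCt
The Hspe1 site spans 2 overlapping 3-unit matches, 89 to 72 bases before the start of Hspe1, and also lies in a promoter window of Hspd1. The Hsph1 element lies 36 to 48 bases past the first start in the promoter table (149636336). That start lies inside the gene range used for the peaks, which begins at 149636498 on the strand of the gene. Both strands were searched. A 3-unit element was present in 0.603% of all 32851 windows of this length, a 2-unit element in 15.1% (every 3-unit element holds 2 of these), and the ER stress element in 0.119%. The exact TATA box letters TATAAA were in none of the members' windows and in 13.6% of all windows. Other forms of the TATA box were not searched, so the absence of a TATA box is not shown. The printed Hspa5 sequence holds tataag, which differs in its last base. Heat shock element matches were found at genes of both classes. The inducible Hspa1a, Hspa1b and Hsph1 held matches and the inducible Dnajb1 held none. The constitutive Hspd1 and Hspe1 held 3-unit matches, at the site they share, and the constitutive Hspa5 held none. Hspa8, Hsp90ab1 and Hsp90aa1 were not searched, and only exact letters within the windows were counted. These matches are descriptions of the sequence and say nothing of binding.

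In HEPA1-6 8 members held a peak, and the same 8 did so in liver. All 5 constitutive genes held peaks in both lists, as did Hsp90aa1, Hsph1 and Dnajb1 among the inducible genes, whereas Hspa1a and Hspa1b held none in either. Of all protein-coding genes 42.0% had a peak in HEPA1-6, 29.7% in liver and 27.8% in both. Within the length range of the members (2798 to 19656 bp) the shares were 44.8% and 31.2%. The members' 8 of 10 thus stood above the background in each list, and the 3 of 5 inducible genes stood nearer to it. The inducible genes without a peak were the near-identical Hspa1a and Hspa1b, whose result is uncertain for the reason given below. Among the constitutive genes, Hspd1 and Hspe1 share a peak. No test accompanies these counts, since genes are not replicates.

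**Figure D1:**
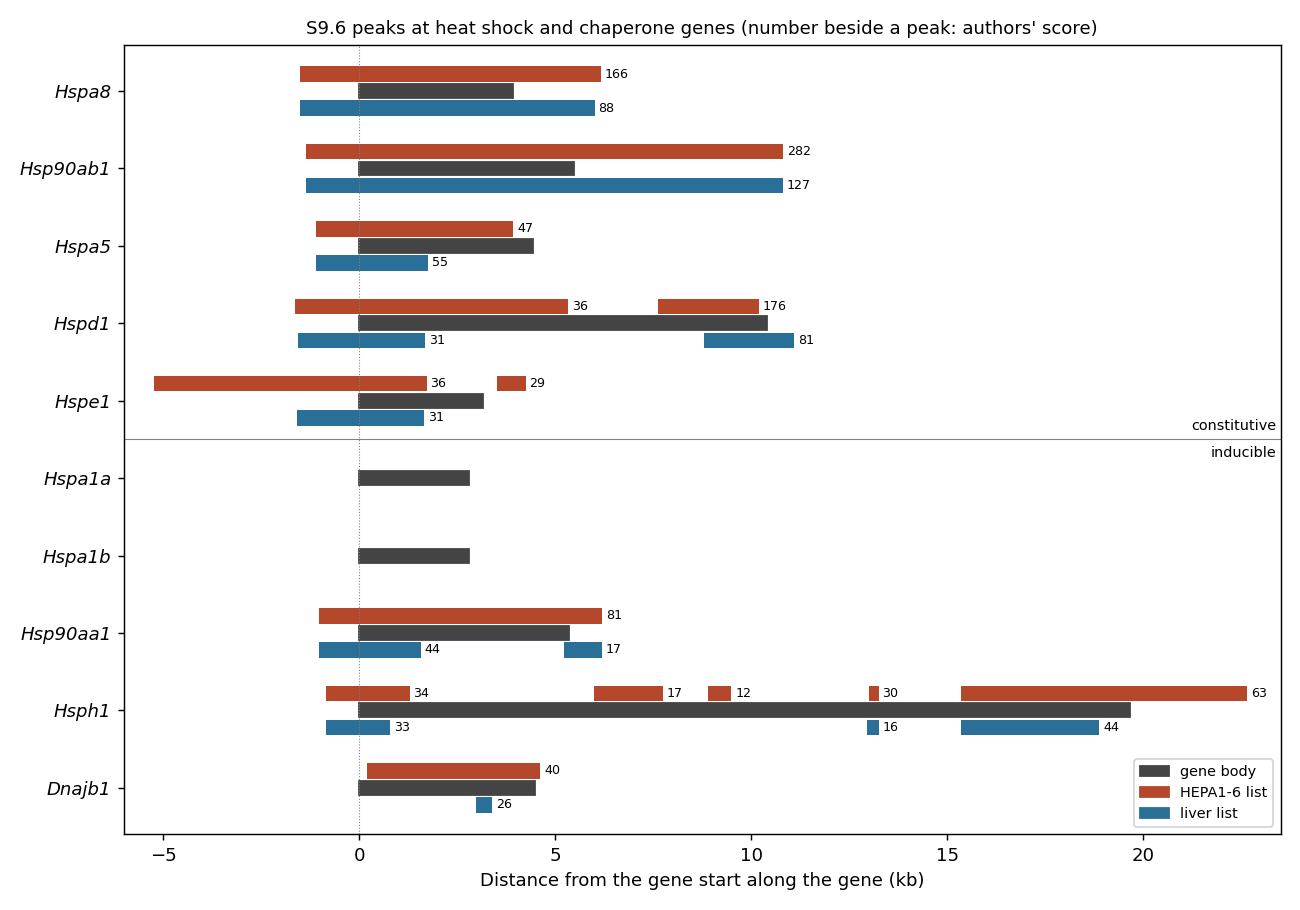
Peaks at the 10 genes, drawn along each gene from its start (x axis, kb), with the gene body in grey, HEPA1-6 peaks above it, liver peaks below it and the authors' score beside each peak. Hspa8 and Hsp90ab1 lie wholly inside 1 peak in both lists, and Hspa1a and Hspa1b have no peak.

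Counted once, the members' peaks numbered 13 in HEPA1-6 and 11 in the liver list. Their median width was 4434 bp in HEPA1-6, where the list median was 1091 bp, and 2606 bp in the liver list, where it was 881 bp. In HEPA1-6 11 of 13 scored above the list median of 21, and in the liver list 9 of 11 scored above 22. Wide and high peaks at these genes were accompanied by a few narrow or low ones, which are named with their genes below.

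Among the HSP70 genes, Hspa8 encodes the constitutive cytosolic HSP70 (HSC70), which folds new proteins and uncoats clathrin vesicles. The gene spans chromosome 9, 40801276 to 40805202, and lay inside a single peak in each list. The HEPA1-6 peak ran from 40799774 to 40807433 (7660 bp, score 166) and 99.0% of the list scored lower. In the liver list the peak ran from 40799774 to 40807279 (7506 bp, score 88), and 97.3% of that list scored lower. Both peaks had the same first base, 1502 bp before the gene start, and passed the gene end by 2231 and 2077 bp. The snoRNA genes Snord14c, Snord14d and Snord14e lie within Hspa8 and therefore within both peaks, so the peaks cannot be divided between host and guests.

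Hspa5 encodes BiP, the HSP70 of the ER (chromosome 2, 34772090 to 34776529). Its HEPA1-6 peak (34770986 to 34776023, 5038 bp, score 47) covered 88.6% of the gene body. The liver peak (34770986 to 34773844, 2859 bp, score 55) covered 39.5%. Both began at the same base, 1104 bp before the gene start, and held the whole promoter window with the ER stress element printed above. They differed at the other edge: the HEPA1-6 peak stopped 506 bp short of the gene end and the liver peak 2685 bp short. Lower scores were held by 89.1% of the HEPA1-6 list and 92.9% of the liver list. The HEPA1-6 peak also touched Rabepk, whose annotated range overlaps the end of Hspa5.

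Hspa1a and Hspa1b encode the stress-inducible cytosolic HSP70 and lie in the same orientation on chromosome 17, at 34969359 to 34972156 and 34956429 to 34959238. Neither gene, with 1 kb on each side, overlapped a peak. The 10120 bp between them held none either. The nearest peak on the side of Hspa1b ended 3490 bp away in both lists, over the noncoding gene 1110038B12Rik and Snord52, with scores of 79 in HEPA1-6 and 34 in the liver list. On the side of Hspa1a the nearest peak began 9774 bp away in both lists, at Lsm2, with scores of 84 and 58. Called peaks therefore flanked the pair in both lists and left it out.

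The pair is a near-identical copy, which bears on whether reads could be placed there. The promoter windows of Hspa1a and Hspa1b were identical at 296 of 300 bases, with 4 mismatches, no gap and a run of 201 identical bases. How the authors treated reads with equal matches at more than 1 place is not given in the sources used here. The part of this in the missing peaks was not tested, and signal too weak for the authors' threshold leaves no entry in a list. The result at both genes is therefore uncertain, and they are counted as without a called peak.

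The HSP90 genes both held peaks over their full length in HEPA1-6. Hsp90ab1 encodes HSP90 beta, the form made in unstressed cells (chromosome 17, 45567778 to 45573261). The same interval, 45562454 to 45574624 (12171 bp), was called in both lists, with a score of 282 in HEPA1-6 and 127 in the liver list. In HEPA1-6 99.6% of peaks scored lower and in the liver list 98.6%, the highest places of any member in each list. It was also the widest member peak, wider than 98.9% and 99.7% of the peaks in the lists. The interval reached 1363 bp before the gene start and 5324 bp past its end, so that it also touched Slc35b2, Nfkbie and Gm35399, and the signal cannot be assigned to Hsp90ab1 alone.

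Hsp90aa1 encodes HSP90 alpha, the inducible form (chromosome 12, 110691036 to 110696395). In HEPA1-6 a single peak (110690209 to 110697431, 7223 bp, score 81) covered the whole gene and touched no other gene. In the liver list 2 peaks kept the same outer edges and left a gap of 3653 bp inside the gene. The peak at the gene start (110694826 to 110697431, 2606 bp) scored 44 and the peak at the gene end (110690209 to 110691172, 964 bp) scored 17. Lower scores were held by 96.2% of the HEPA1-6 list, and by 88.2% and 25.6% of the liver list. Body coverage was 100% in HEPA1-6 and 31.8% in the liver list.

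Hspd1 and Hspe1 encode the mitochondrial chaperonin HSP60 and its lid HSP10. They are transcribed away from each other on chromosome 1, Hspd1 at 55077833 to 55088243 and Hspe1 at 55088148 to 55091317, and their starts overlap. In each list a single peak on the plus strand, which is the strand of Hspe1, covered the starts of both genes and the heat shock element. It ran from 55082920 to 55089868 (6949 bp, score 36) in HEPA1-6 and from 55086568 to 55089811 (3244 bp, score 31) in the liver list. The HEPA1-6 peak reached 5323 bp into Hspd1 and the liver peak 1675 bp. On the Hspe1 side they reached 1720 and 1663 bp into the gene.

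The higher score at this pair lay at the far end of Hspd1. The HEPA1-6 peak there (55078056 to 55080628, 2573 bp) scored 176, with 99.1% of the list lower, and the liver peak (55077159 to 55079440, 2282 bp) scored 81, with 96.9% lower. Both were on the minus strand, the strand of Hspd1. The liver peak passed the gene end by 674 bp, and the HEPA1-6 peak stopped 223 bp before it. Hspe1 had a further HEPA1-6 peak of 725 bp (score 29) that lay within the 1 kb flank past its end, overlapped no gene and had no counterpart in the liver list. Just outside the window of Hspd1, 1134 bp from the gene, HEPA1-6 had another peak with a score of 16.

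Hsph1 encodes the HSP110 protein HSP105, a nucleotide release factor of HSP70, and is the longest member (19656 bp; chromosome 5, 149616843 to 149636498). It held 5 HEPA1-6 peaks and 3 liver peaks, all on the strand of the gene. At the gene start the HEPA1-6 peak (149635215 to 149637349) scored 34 and the liver peak (149635714 to 149637349) scored 33. Their upstream edge was the same, 851 bp before the start of the gene range at 149636498. Both held the heat shock element of Hsph1 shown above. At the gene end the HEPA1-6 peak (149613861 to 149621151, 7291 bp) scored 63 and ran 2982 bp past the gene, while the liver peak (149617621 to 149621151, 3531 bp) scored 44 and ended 778 bp inside it. A narrow peak within the gene was shared, with 250 bp and a score of 30 in HEPA1-6 and 304 bp and a score of 16 in the liver list. The remaining HEPA1-6 peaks of 1767 bp and 585 bp scored 17 and 12, which 30.5% and 2.32% of the list did not reach, and were without a liver peak. Hsph1 thus had its higher scores at its ends and its lower ones between them in HEPA1-6.

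Dnajb1 encodes the inducible HSP40 that partners cytosolic HSP70 (chromosome 8, 83608175 to 83612653). The HEPA1-6 peak (83608363 to 83612796, 4434 bp, score 40) covered 95.8% of the gene body and began 188 bp past the gene start. The liver peak (83611164 to 83611565, 402 bp, score 26) covered 8.98% and lay inside the HEPA1-6 peak. The 300-base window at the first start, which includes the promoter printed above, was in no peak of either list, and 78.3% of a second promoter window further into the gene was inside the HEPA1-6 peak. Dnajb1 was the only member with a peak whose first start was uncovered in both lists. The authors' strand for the HEPA1-6 peak was minus, opposite to the gene, and for the liver peak plus.

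**Figure D2:**
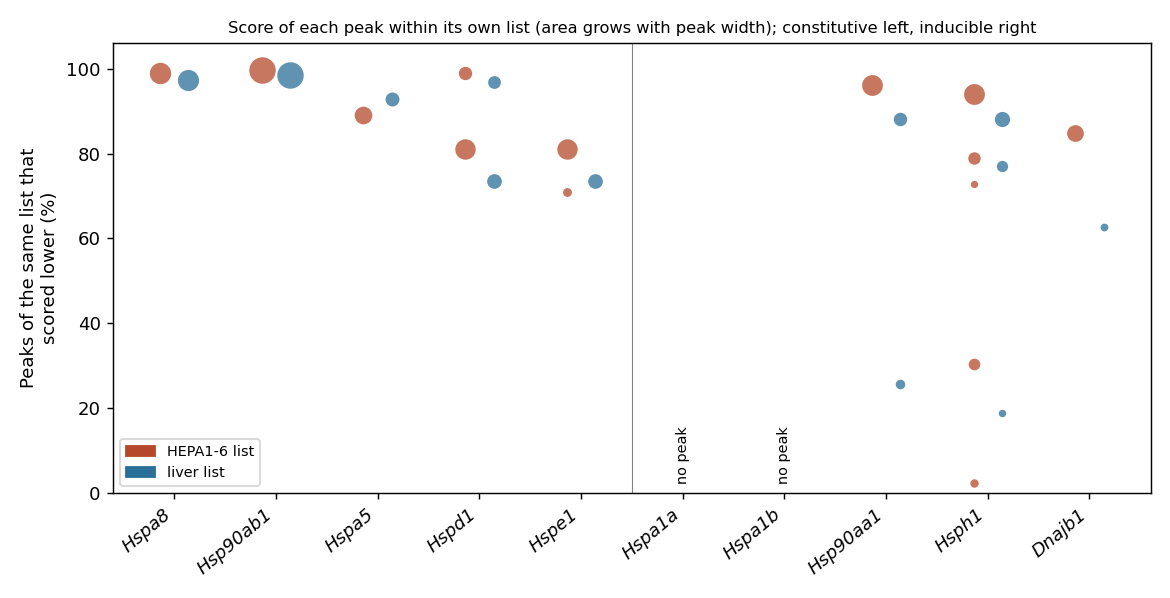
Each point is a peak, placed by the percentage of peaks in its own list that scored lower (y axis) for each gene (x axis), with area growing with peak width, HEPA1-6 in red and liver in blue. The peaks of Hspa8 and Hsp90ab1 sit above 97% in both lists, and the low points belong to Hsp90aa1 and Hsph1.

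The highest score at each gene was compared with that of other genes that hold a peak. In HEPA1-6 the top peak of Hsp90ab1 exceeded that of 99.1% of such protein-coding genes, Hspd1 97.3%, Hspa8 96.98%, Hsp90aa1 87.4%, Hsph1 80.1%, Hspa5 67.4%, Dnajb1 58.4% and Hspe1 51.6%. In the liver list the order was Hsp90ab1 97.9%, Hspa8 95.2%, Hspd1 94.5%, Hspa5 86.1%, Hsp90aa1 and Hsph1 77.4% each, Hspe1 55.01% and Dnajb1 42.0%. The leading 3 genes were constitutive in both lists. Constitutive and inducible genes nevertheless overlapped, since Hspe1 stood below Hsp90aa1 and Hsph1 in each list.

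Coverage of the gene body was summarised over all 10 genes, with those without a peak at 0. The median was 82.2% in HEPA1-6 and 31.7% in the liver list, and over all protein-coding genes it was 0 in both. That 0 follows from the share of protein-coding genes with a peak, 42.0% and 29.7%, and does not describe genes with a peak. At least 50% of the body lay in peaks for 7 members in HEPA1-6, against 9.31% of all protein-coding genes, and for 3 members in the liver list, against 3.41%. All 3 of the latter (Hspa8, Hsp90ab1 and Hspe1) were constitutive. The whole body was covered for Hspa8, Hsp90ab1 and Hsp90aa1 in HEPA1-6, where 2.42% of genes were, and for Hspa8 and Hsp90ab1 in the liver list, where 0.905% were. Among the constitutive genes coverage ranged from 54.3% to 100% in HEPA1-6 and from 31.5% to 100% in the liver list. Among the inducible genes it ranged from 0 to 100% and from 0 to 31.8%. The members are short (median 4459.5 bp, against 17169 bp over all protein-coding genes), and a peak of given width covers more of a short gene.

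**Figure D3:**
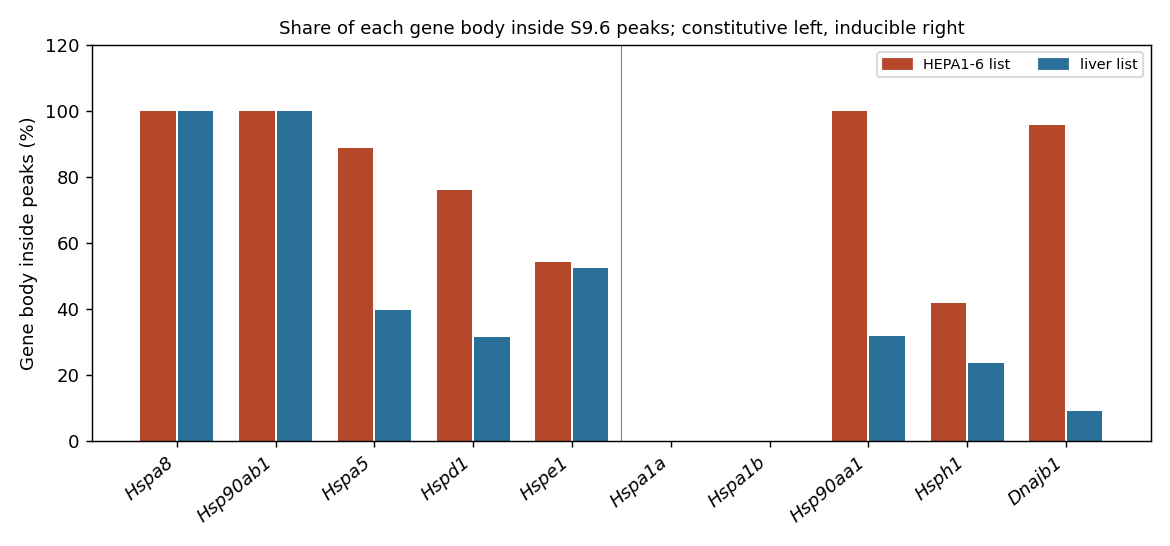
Bars give the percentage of each gene body (y axis) inside HEPA1-6 peaks (red) and liver peaks (blue). The liver bar equals the HEPA1-6 bar at Hspa8 and Hsp90ab1 and falls furthest below it at Dnajb1, 8.98% beside 95.8%.

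The first promoter window lay wholly inside a peak in both lists for Hspa5, Hspd1, Hspe1 and Hsph1 and was in no peak for Hspa1a, Hspa1b and Dnajb1. Of all promoter windows 12.3% lay wholly inside a HEPA1-6 peak and 6.96% inside a liver peak. Gene starts were inside a peak for 7 members in each list, all 5 constitutive genes with Hsp90aa1 and Hsph1. Because Hspd1 and Hspe1 share a peak, these were 6 peaks in each list. Over 17492 protein-coding genes with a strand in the promoter table, 17.2% had the start in a HEPA1-6 peak and 10.6% in a liver peak. Gene ends were inside a peak for 5 members in HEPA1-6 (background 15.0%) and 4 in the liver list (6.44%). For Hspa8, Hsp90ab1 and Hsp90aa1, which are not in the promoter table, the gene strand was read from the authors' peaks.

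Peak strands were set against gene strands where the table gives one. In HEPA1-6 9 of 11 pairs of a member gene and a peak had the same strand, and the exceptions were Dnajb1 and the divergent peak counted at Hspd1. In the liver list 7 of 8 pairs did, the exception being the divergent peak. Over all peaks that touch a single such gene, 6.09% in HEPA1-6 and 8.18% in the liver list were on the opposite strand. The sets are unlike, since this background leaves out peaks that touch further genes. The divergent peak touches Hspd1 and Hspe1, is counted at both and must be opposite to Hspd1 or Hspe1. How the authors assigned the strand is not given in the sources used here.

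The lists were then compared at these loci. All 11 liver member peaks overlapped a HEPA1-6 peak, against 75.9% of the whole list, and 10 of 13 HEPA1-6 member peaks overlapped a liver peak, against 31.8%. The whole lists are not a background of like width. Of the member peaks, 10 of 13 in HEPA1-6 and 9 of 11 in the liver list were wider than the list median. A wider peak has more room to overlap. When 50% of both peaks had to overlap, 6 peaks of each list remained shared, and no whole-list share is given for this rule. Of 11 overlapping pairs, 8 had the same base at 1 or both edges, and over all 11455 overlapping pairs 46.1% did. Both edges were the same for Hsp90ab1 alone. The pair at Dnajb1 had opposite strands, as did 13.5% of all pairs.

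Other chaperone genes give the setting of these members. Of 87 further genes in 8 groups, 64 (73.6%) held a peak in HEPA1-6 and 49 (56.3%) in liver. The count was 48 for genes with peaks in both, 16 for HEPA1-6 alone, 1 for liver alone and 22 for neither. The backgrounds were again 42.0% and 29.7%, over genes with a median length of 17169 bp against 14604 bp for these 87. Groups differed widely, from 18 of 18 HSP90 genes and cochaperones to 2 of 8 small heat shock proteins in HEPA1-6. The scores given for these genes below are of the top peak in HEPA1-6 and then in liver. They stand without the place in the list, so they do not compare the lists. The top peaks of a gene need not coincide.

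**Figure D4:**
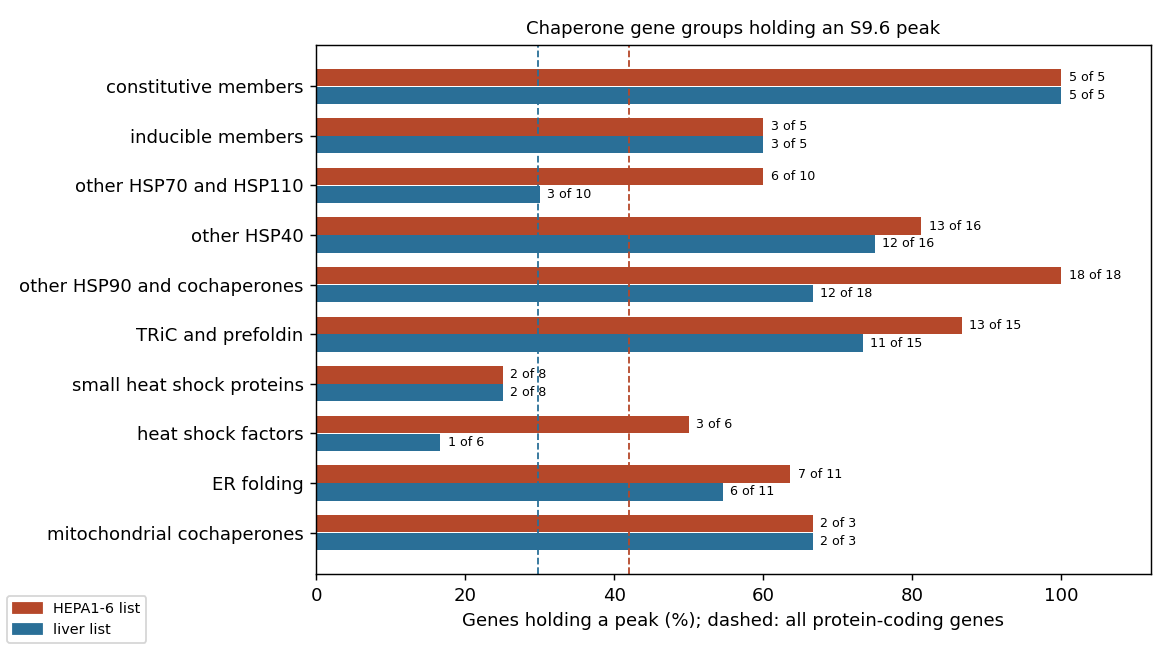
Bars give the percentage of genes in each chaperone group (y axis) that hold a HEPA1-6 peak (red) or a liver peak (blue), with counts beside them and dashed lines at 42.0% and 29.7% for all protein-coding genes. The HSP90, chaperonin and HSP40 groups lie above the lines. The small heat shock proteins lie below them, in liver near the line (25% against 29.7%). In liver the heat shock factors also lie below the line (16.7%), and the other HSP70 and HSP110 genes lie near it (30%).

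In the wider HSP70 and HSP110 group 6 of 10 genes held a peak in HEPA1-6 and 3 in liver. The liver share, 30%, was near the background of 29.7%. Hspa9, the mitochondrial HSP70 mortalin, had the highest scores, 150 in HEPA1-6 and 82 in the liver list. Hspa4, an HSP110 relative, had 9 and 5 peaks with top scores of 41 and 28. The related Hspa4l had a top score of 30 in both, at different places in the gene. Hspa12a and Hspa13 held no peak. Among J-domain genes 13 of 16 and 12 of 16 held one. Dnaja1, a cytosolic HSP40, scored 92 and 42. The high value at Dnajb4 in HEPA1-6 (81, with 15 in the liver list) came from a peak that covers 1.35% of its body and touches another gene. Dnajc7, a cochaperone with repeats that bind HSP70 and HSP90, scored 73 and 66, and Dnajb5 scored 30 and 46. Dnajc3, the ER protein that binds BiP, was the gene with a liver peak alone (score 32), in its flank and outside its body. Dnaja4 and Dnajc1 held none.

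Of the 18 HSP90 genes and cochaperones, 18 held a peak in HEPA1-6 and 12 in liver. Stub1, the ubiquitin ligase CHIP that acts on chaperone-bound clients, lay wholly inside a peak in both lists (scores 121 and 71), each of which touched other genes. Stip1, the adaptor HOP that links HSP70 to HSP90, scored 60 and 87, from peaks at opposite ends of the gene. Ptges3, the HSP90 cochaperone p23, scored 77 and 33. In the group of the cytosolic chaperonin TRiC and prefoldin 13 of 15 and 11 of 15 held a peak. Cct5, a TRiC subunit, lay wholly inside a peak in both lists (scores 113 and 61). The peak counted at Cct6b (105 and 35) covered 3.06% of its body and touched another gene. Vbp1, a prefoldin subunit on the X chromosome, scored 20 and 44, and the prefoldin genes Pfdn5 and Pfdn6 held no peak.

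Small heat shock proteins, which hold unfolded proteins without ATP, held peaks at 2 of 8 genes in each list. Hspb8 scored 44 and 26, from peaks at opposite ends of the gene, and that of HEPA1-6 lay almost wholly outside the gene body. Hspb6 scored 20 and 18, while the lens crystallin genes Cryaa and Cryab held none. Among heat shock factors and the HSF binding protein, 3 of 6 held a HEPA1-6 peak and 1 a liver peak. The liver share, 16.7%, was below the background of 29.7%. Hsf1, the main stress factor, held peaks in both (top scores 87 and 61), but the top liver peak lay in its flank, outside its body, and both top peaks touched another gene. Hsf2 held a HEPA1-6 peak (score 39) that covered 0.197% of its body, and Hsf3 and Hsf4 held none.

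In the ER 7 of 11 and 6 of 11 folding genes held a peak. Canx, the membrane lectin chaperone calnexin, scored 161 and 122, Manf scored 67 and 35, and the disulfide isomerase gene Pdia3 scored 30 and 36. Creld2 and Sdf2l1 held none. Of 3 mitochondrial cochaperones, Grpel2 (74 and 40) and Grpel1 (32 and 14), nucleotide exchange factors of mitochondrial HSP70, held peaks and Hscb did not. The top HEPA1-6 peak of Grpel2 lay outside its body, and its top peaks touched another gene in both lists. Top peaks of Dnaja1, Dnajc7, Cct5, Hspb6, Hspb8, Canx and Manf in both lists, of Stip1 in HEPA1-6 and of Pdia3 in liver also touched another gene, so these scores are not those of the named gene alone.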

How the data were processed

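The data were 1 list of S9.6 peaks per source, deposited with chromosome, start, end, name, score and strand. The peak score deposited by the authors has no stated scale. Per the submitters' processing notes the build was mm10 and CASAVA 1.8.2, cutadapt, Bowtie2, bedtools, SAMtools and MACS2 were used, with neither role nor order given. Thresholds are not given in the sources used here. Genes, names and promoters came from RefSeq tables of GRCm38.p6, the assembly of mm10, and all 10 members and 87 other chaperone genes were matched by symbol. Positions are 1-based. Overlaps of 1 bp, coverage, ranks within a list and motifs were computed in Python 3.11.15, and promoters aligned with Biopython 1.88. The overlap step was checked on simulated data: 200 of 200 genes with a planted peak were found.

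No test was made, because there is 1 list per source and the depth is unknown. The members and lists were chosen with earlier results of these data known. Other chaperone genes were named by rule: in each group the 2 highest scores per list, the first 2 alphabetically without a peak, and any with a liver peak alone. Alternatives were the flank, the score, the number of peaks, the peak midpoint, the overlap and the background genes.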

Additional observations from a re-analysis of the deposited data

How the results depend on the processing

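Over 61 alternatives for 15 results, 47 values stayed within 1.5 times a count, within the 95% Wilson interval of a share or, for the median coverage, which has no interval, at the same value, and 14 did not. The same 8 members held a peak in both lists without a flank, with a flank of 2 kb, with the higher-scoring 50% of each list, with equal numbers of peaks and with the midpoint of the peak; equal numbers leave the liver list as it is by construction. The share of all protein-coding genes with a peak moved to 40.2% (HEPA1-6) and 27.6% (liver) without a flank, to 43.3% and 30.8% with 2 kb, to 33.5% and 20.7% with the higher-scoring 50%, to 39.3% and 28.1% with the midpoint, and to 44.8% and 31.2% among genes of the members' length range. With equal numbers it was 34.0% in HEPA1-6. An overlap of 50% of both peaks left 6 shared HEPA1-6 and 6 shared liver member peaks. With the higher-scoring 50% the median covered share of a member's body was 30.4% in the liver list, against 31.7% with all peaks. No paired analysis was possible because each source has 1 merged list, and no replicate could be left out. The unknown depth limits each statement that a gene held no peak.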

Other observations

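Among the members, promoter windows with and without a peak overlapped in base composition. The windows of Hspd1 (first start, 72.3% G and C), Hspe1 (71.0%), Hspa5 (61.3%) and Hsph1 (first start, 59.0%) lay wholly in peaks of both lists. The windows of Hspa1a and Hspa1b (61.0% each) and Dnajb1 (first start, 70.7%) lay in none. The median over 32851 windows was 52.7%, and 12.3% of windows lay wholly in a HEPA1-6 peak and 6.96% in a liver peak. The skew of G over C on the strand of the gene, (G - C) / (G + C), was 0.13 at Hspa5, 0.11 at Hsph1 and 0.14 at the uncovered Dnajb1 window. It was -0.093 at Hspa1a and -0.082 at Hspa1b, and -0.15 at Hspe1, whose window was covered. At Hspd1, where both windows were covered, it was -0.0046 at the first start and 0.16 at the second. No test was made on these 7 genes.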
